A study of Mus musculus with 25 samples.

Results

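The AP-1 and Egr immediate-early genes are genes whose transcription rises within minutes of a stimulus, and 10 of them were examined in the gastrocnemius, the large calf muscle of the hindlimb, of ageing mice. They were chosen by name, as Fos, Jun, Junb, Jund, Fosl2, Atf3, Egr1, Ier2, Btg2 and Maff, and every one with its own symbol in the deposited muscle values was used. Of the 10, 8 were among the 8829 genes measured, and Ier2 and Maff had no values there. The mice were male SAMP8 mice, an inbred line that shows signs of ageing early. The control group (n = 11) received vehicle, which was corn oil, and the other group (n = 14) received thymol, a monoterpenoid phenol of thyme, in the same oil. Both were dosed by mouth from 8 months of age for 3 months, the thymol group with 20 mg of thymol for each kg of body weight a day on most days of the week, and each mouse gave 1 library. The time from the last dose to tissue collection was not given in the sources used here for these mice.

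AP-1 is a transcription factor made of 2 basic leucine zipper proteins, one usually from the Jun family (Jun, Junb, Jund) and the other from the Jun, Fos (Fos, Fosl2) or ATF (Atf3) families. Fos proteins bind DNA only as partners of Jun proteins, whereas Jun proteins can pair with each other. Egr1 is a zinc finger factor that binds GC-rich sites, and Btg2 is an antiproliferative protein that recruits the deadenylase complex to messenger RNAs. In muscle these genes are known to respond to contraction, stretch, injury and handling, and their messenger RNAs are short lived, so that a level read at 1 time reflects the recent past of the tissue. Jund is the member usually present at a steady level in resting cells.

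Promoter windows of 3 members are shown because Fos and Btg2 formed the pair of members with the highest correlation between mice and because Atf3 had the widest spread. The windows are from RefSeq on GRCm38.p6 and hold the 250 bases before and the 50 bases after the annotated start, 5′ to 3′ on the gene's own strand. The Fos window lies at chr12:85473640-85473939 on the plus strand, the Btg2 window at chr1:134079106-134079405 on the minus strand and the Atf3 window at chr1:191183284-191183583 on the minus strand. Capitals mark letters that match a searched motif on either strand.
Fos: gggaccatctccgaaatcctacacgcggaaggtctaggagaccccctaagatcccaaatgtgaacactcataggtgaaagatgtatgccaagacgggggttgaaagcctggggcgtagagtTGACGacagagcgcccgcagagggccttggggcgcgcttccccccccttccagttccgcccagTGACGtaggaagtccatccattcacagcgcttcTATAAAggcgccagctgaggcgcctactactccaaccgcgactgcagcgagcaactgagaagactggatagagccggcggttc
Btg2: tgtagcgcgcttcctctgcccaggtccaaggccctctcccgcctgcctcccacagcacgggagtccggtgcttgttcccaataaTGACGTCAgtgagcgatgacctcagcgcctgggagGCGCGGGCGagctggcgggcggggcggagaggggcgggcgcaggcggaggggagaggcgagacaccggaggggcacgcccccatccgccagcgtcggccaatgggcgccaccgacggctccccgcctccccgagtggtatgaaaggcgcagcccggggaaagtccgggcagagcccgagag
Atf3: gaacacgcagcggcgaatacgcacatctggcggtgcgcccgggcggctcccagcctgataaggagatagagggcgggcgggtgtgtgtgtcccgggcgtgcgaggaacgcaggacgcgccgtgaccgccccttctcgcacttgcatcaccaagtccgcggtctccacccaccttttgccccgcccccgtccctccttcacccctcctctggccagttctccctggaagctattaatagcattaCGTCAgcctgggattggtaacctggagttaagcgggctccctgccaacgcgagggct

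The motifs searched were the cyclic AMP response element (CRE, TGACGTCA), its shorter core TGACG, the AP-1 site (TGACTCA or TGAGTCA), the EGR site GCGNGGGCG, the ETS core CCGGAA, the TATA box TATAAA and the CArG box, on both strands. A whole CRE holds 2 overlapping cores, 1 on each strand, and both were counted. Windows were matched for 7 of the 8 measured members, and in 5 of the 7 (all but Fos and Jun) the RefSeq start differs from the outer end of the GENCODE gene. It lies 30 bases upstream of that end in Junb, 35 in Btg2 and 1210 in Jund. On the same scale it is at -671 in Fosl2 and at -34706 in Atf3, where a minus sign means inside the gene. In Fos the CRE core matched at bases -129 to -125 and -66 to -62 from the start and TATAAA at -33 to -28. In Btg2 the whole CRE matched at -166 to -159 and the EGR site at -131 to -123, and in Atf3 the CRE core matched at -7 to -3. The CRE core was found in 4 of the 7 windows, against 20.8% of the 32817 promoter windows of the table, and the whole CRE in 1, against 1.79%. The EGR site was found in 2 of 7 (Btg2 and Fosl2), against 5.56%, and TATAAA in 2 of 7 (Fos, and Junb at bases 1 to 6 from the RefSeq start), against 13.6%. No match to the AP-1 site, the ETS core or the CArG box was found in the 7 windows, against 5.20%, 14.9% and 1.63% of all windows. These matches describe letters only.

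Libraries were made with QuantSeq, which sequences tags from the 3′ ends of transcripts with a poly(A) tail, and 1 read stands for 1 tagged end whatever the length of the transcript. Values are log2 CPM, read counts scaled to a common library size and put on a log2 scale, with about 2 reads added to each count, which understates changes of genes with few reads. The number of reads behind each value could be recovered, and depth ranged from 4463818 to 9463418 reads per mouse. At most 33.9% of a mouse's reads came from the mitochondrial genome. All 10 fast fibre and all 8 slow fibre markers were measured. As in a fast muscle, the fast myosin Myh4 lay between 21251 and 43004 CPM in the 25 mice. The slow myosin Myh7 lay between 2.94 and 1083 CPM. Of the leukocyte markers 10 of 13 and of the satellite cell markers 2 of 6 were measured, though not Ptprc or Pax7, which define those cells. In whole muscle, fewer cells of a type and less RNA per cell cannot be told apart.

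The first comparison asked whether the members differed between thymol and control mice, with a limma fit over all 8829 genes. No member, and no gene of the table, passed an adjusted p under 0.05 (limma, Benjamini-Hochberg), which is 0% of the genes, and the smallest adjusted p of any gene was 0.741. Without adjustment 312 genes (3.53%) had a p under 0.05, of which 150 (1.7%) were lower and 162 (1.83%) higher with thymol. Among the 8 members, 1 of 8 (Jund) was at an unadjusted p under 0.05, in the lower direction, and none in the higher. The mean was lower with thymol in 7 of the 8, all but Fos, but the sign of Fos turned under some settings. It turned with a pseudocount of 5 and without any 1 of 6 mice (control 19, 32 or 35, or thymol 6, 9 or 30), and that of Junb turned when control 1, control 14 or thymol 34 was left out. Of all genes, 4454 of 8829 had a lower mean with thymol. The median difference of the members was -0.23 on the log2 scale, and that of all genes was -0.0014.

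Jund, the Jun family member that can restrain the growth-promoting activity of Jun, lies at chr8:70698949-70700616 on the plus strand as a gene of 1 exon (GRCm38, GENCODE M21). Its level in control mice had a low of 5.22, a median of 5.70 and a high of 6.09 log2 CPM, and in thymol mice a low of 4.88, a median of 5.33 and a high of 5.88. The 6 lowest mice were all thymol mice and the highest was control 14, and the groups overlapped between 5.22 and 5.88. Of the 14 thymol mice, 13 lay below the control median. The control mean was 5.63 ± 0.24 (SD, n = 11), above the thymol mean of 5.29 ± 0.31 (SD, n = 14). Jund thus differed by -0.34 (SE 0.11, 95% interval -0.55 to -0.12), a fold of 0.791, with an unadjusted p of 0.00326 and an adjusted p of 0.9999 by limma, the 17th smallest p among the 8829 genes. Between 210 and 521 reads supported Jund in each mouse. Its locus overlaps Gm11175 on the opposite strand, and the strand setting of the counting was not given in the sources used here.

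Jun, which gives AP-1 its strongest activating subunit, is a 1-exon gene at chr4:95049034-95052222 on the minus strand and overlaps the antisense gene Junos. It ranged from 6.17 to 7.45 log2 CPM in control mice (median 6.82) and from 6.03 to 6.84 in thymol mice (median 6.60). No thymol mouse exceeded 6.84, whereas 4 control mice did, and at the low end the groups overlapped. Jun differed by -0.22 (SE 0.11, 95% interval -0.45 to 0.00), with an unadjusted p of 0.0535 in the limma fit.

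Junb, a Jun protein that can oppose Jun, is a 1-exon gene at chr8:84974484-84978718 on the minus strand and overlaps Prdx2 on the other strand. Control mice spanned 3.23 to 4.76 log2 CPM with a median of 3.66, and thymol mice 3.28 to 4.57 with a median of 3.61. The groups overlapped nearly throughout, and the difference was -0.03 (SE 0.16, 95% interval -0.35 to 0.29), with an unadjusted limma p of 0.838.

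Fos, the prototype immediate-early gene, has 4 exons at chr12:85473890-85477273 on the plus strand. Control mice had a low of -1.33, a median of 2.56 and a high of 3.58 log2 CPM, and thymol mice a low of 0.56, a median of 2.14 and a high of 3.68. Control 19, with 1 read of Fos, stood apart at the low end, and the highest thymol mouse (thymol 6, 97 reads) lay above the highest control mouse (control 1, 90 reads). The difference in means was 0.04 (SE 0.41, 95% interval -0.80 to 0.88), with an unadjusted p of 0.921 by limma. Without control 19 it was -0.30. The interval is wide enough to hold a change of more than 0.80 on the log2 scale either way.

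Fosl2, which encodes the Fos family protein Fra-2, has 4 exons at chr5:32135801-32157842 on the plus strand. Its range was 4.13 to 5.37 log2 CPM in control mice (median 4.66) and 3.94 to 4.87 in thymol mice (median 4.45). The 3 highest mice were control mice, and below 4.87 the groups overlapped. The difference of -0.23 (SE 0.12, 95% interval -0.48 to 0.02) had an unadjusted limma p of 0.065.

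Atf3, a stress-induced factor that represses transcription as a homodimer, is at chr1:191170296-191218039 on the minus strand and overlaps Gm24748 on the other strand. Control mice had a low of 1.39, a median of 2.63 and a high of 3.66 log2 CPM, and thymol mice a low of -1.35, a median of 1.70 and a high of 3.71. The 6 lowest mice were thymol mice, with thymol 21 lowest at 1 read, yet thymol 20 (118 reads) was the highest of all 25. Atf3 had the largest difference of the 8 members, -0.70, and also the largest error (SE 0.42, 95% interval -1.56 to 0.16), with an unadjusted limma p of 0.109. Leaving out 1 mouse at a time gave differences from -0.85 to -0.47, and with a pseudocount of 5 the difference was -0.25, smaller than the -0.30 of Jund

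Egr1, the zinc finger factor of the group, has 2 exons at chr18:34859823-34864984 on the plus strand. It ranged from 2.54 to 4.01 log2 CPM in control mice (median 3.12) and from 1.98 to 3.89 in thymol mice (median 3.20). The medians and the means were in opposite order, and the difference in means was -0.09 (SE 0.19, 95% interval -0.48 to 0.31), with an unadjusted limma p of 0.649.

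Btg2, the antiproliferative gene, has 2 exons at chr1:134075170-134079120 on the minus strand. Control mice spanned 2.56 to 4.32 log2 CPM (median 3.10) and thymol mice 2.08 to 4.17 (median 2.85). Of the 14 thymol mice, 12 lay below the control median, while thymol 6 was the second highest mouse of all. Its difference was -0.34 (SE 0.20, 95% interval -0.74 to 0.06), with an unadjusted limma p of 0.0931.

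**Figure D1:**
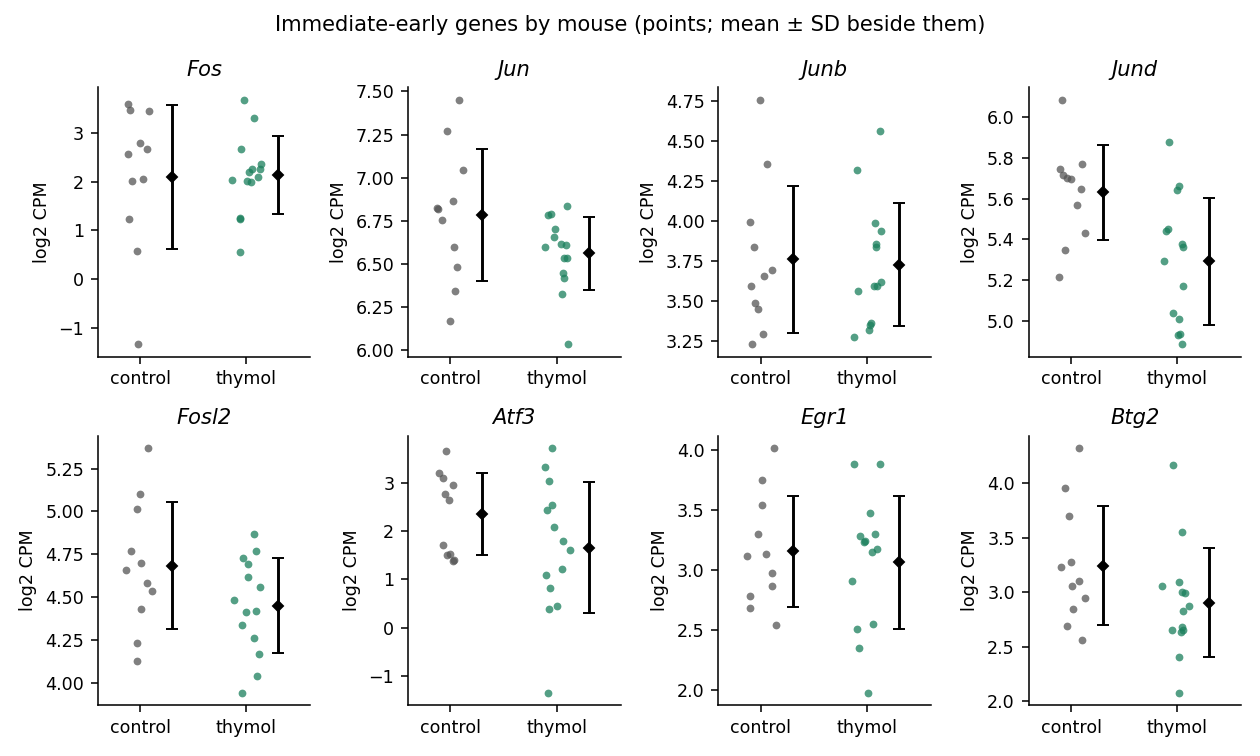
Levels of the 8 measured members in log2 CPM (vertical axis, its own scale in each panel) in the 11 control and 14 thymol mice, 1 point a mouse, with the group mean ± SD beside the points. The groups overlap in every panel. Jund shows the clearest offset, and the single low points of Fos (control 19) and Atf3 (thymol 21) are mice with 1 read.

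**Figure D2:**
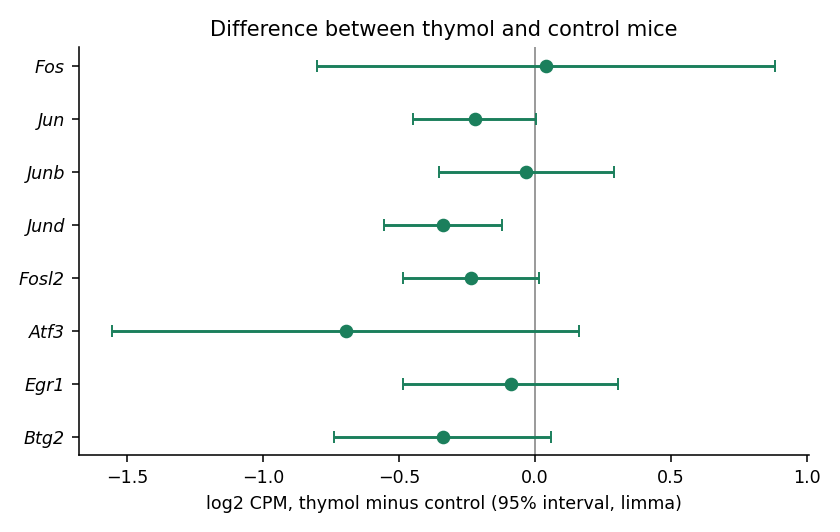
Difference between thymol and control means for each member on the log2 CPM scale (horizontal axis), with 95% intervals from limma. The interval leaves out 0 for Jund alone, before adjustment over 8829 genes.

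Other genes of the same pathways were read from the same fit. Of 21 other AP-1 and related basic leucine zipper genes 16 were measured, and none had an unadjusted p under 0.05, with 15 lower and 1 higher with thymol and a median difference of -0.09. Of 52 other immediate-early genes 34 were measured, and 28 of them were lower with thymol, with a median of -0.15 and 1 at an unadjusted p under 0.05. That gene was Ppp1r15a, which encodes the stress-induced phosphatase subunit GADD34, with a control mean of 3.53 ± 0.41 (SD, n = 11) and a thymol mean of 3.12 ± 0.33 (SD, n = 14). Its difference of -0.40 had a limma SE of 0.14, an unadjusted p of 0.00906 and an adjusted p of 0.9999. Neither list held a gene that passed the adjusted test, and the share of all genes at an unadjusted p under 0.05 in the lower direction was 1.7%. Whatever the p, 4454 of all 8829 genes were lower with thymol. Genes of a list were measured in the same mice and can vary together, so such counts are not independent.

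Kinases, factors and co-repressors upstream of the members were split, with 18 of 35 measured genes lower, 17 higher and a median of -0.01. The 1 gene at an unadjusted p under 0.05 was Crtc2, a coactivator of CREB, with a difference of -0.30 (SE 0.14, unadjusted limma p 0.036). Known targets of AP-1 or Egr1 were split as well, with 7 of 13 lower, none at an unadjusted p under 0.05 and a median of -0.0044. Heat-shock and handling stress genes had 5 of 10 lower and a median of -0.01, and their 1 gene at an unadjusted p under 0.05 was Hsf1, the heat-shock transcription factor, with a difference of -0.19 (SE 0.09, unadjusted limma p 0.0406). None of the 13 measured circadian clock genes had an unadjusted p under 0.05, and their median was 0.01.

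Some marker lists of other cell types were also lower with thymol. All 8 slow fibre markers had a lower mean, with a median of -0.26 and none at an unadjusted p under 0.05, and their summed level ran from 926 to 7868 CPM in control and from 77.6 to 10017 CPM in thymol mice. All 5 measured Schwann cell markers had a lower mean, with a median of -0.31. Their summed level ran from 79.6 to 267 CPM in control and from 71.02 to 186 CPM in thymol mice, and Sox10 had no values. Of the 10 endothelial markers 8 had a lower mean, with a median of -0.08 and 1 of 10 (Tie1, an endothelial receptor) at an unadjusted p of 0.0194. All 5 measured blood cell markers had a lower mean as well, with a median of -0.14 and none at an unadjusted p under 0.05. Median differences of the fast fibre, satellite cell, smooth muscle, fibroblast, leukocyte and adipocyte markers lay between -0.10 and -0.0037, with none at an unadjusted p under 0.05. The part of these markers in the differences of the members was not tested.

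The second comparison was of the spread between mice. Pooled within the groups, the SD was 1.14 log2 for Fos and 1.16 for Atf3, and only 44 and 42 of the 8829 genes, respectively, varied more. Both have few reads, and by mean level they lay at percentiles 3.25 and 0.92 of all genes. With a pseudocount of 5 the limma SE of the thymol difference fell from 0.41 to 0.17 for Fos and from 0.42 to 0.18 for Atf3. Their spread was not compared with that of genes of like level. Egr1 and Btg2 followed at 0.52 each, above 91.8% and 92.2% of genes, and Junb was at 0.42. Fosl2 (0.32), Jun (0.30) and Jund (0.28) were near the middle of all genes, at percentiles 62.5, 56.4 and 51.0. Counting error of the reads made up 3.11% to 11.5% of the variance within groups in the 8 members, and 3.85% for Fos and 3.98% for Atf3.

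The spread itself was compared between groups by fitting limma to the absolute deviation of each value from its group median. No member and no gene passed the adjusted test (0%), and 276 genes (3.13%) had an unadjusted p under 0.05, none of them a member. The group SD of Fos was 1.47 in control and 0.80 in thymol mice, that of Atf3 0.85 and 1.35, and that of Jun 0.38 and 0.21. The smallest unadjusted p of the members was 0.069 for Jun, followed by 0.113 for Fos, and all adjusted p were 0.9988 by limma. The SD of Fos in control mice includes the mouse with 1 read.

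The third comparison asked whether the members rose and fell together from mouse to mouse within the groups. Group means were removed first, so that a difference between groups could not make a correlation. The 8 members form 28 pairs, and Pearson's r over the 25 mice was positive in 21 of 28, with a median of 0.20 and a range from -0.19 to 0.53. Over all 38971206 pairs of the 8829 genes the median was -0.0011, 49.8% were positive and 19.8% exceeded the median of the member pairs. In limma fits of every gene on treatment and the level of 1 member, no pair of members passed the adjusted test, and the smallest adjusted p was 0.323. By permutation within groups, 5 of 28 pairs had an unadjusted p under 0.05 with Pearson's r and 4 of 28 with Spearman's rho. Of all gene pairs, 4.69% had a Pearson's r at least as far from 0 as the weakest of those 5 (0.44), and 5.33% a Spearman's rho as far from 0 as the weakest of those 4 (0.43).

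Fos and Btg2 had the highest correlation (r = 0.53, permutation p = 0.00858, rho = 0.54, permutation p = 0.00723), and r was 0.65 without the 2 mice farthest from the median of Fos (permutation p = 0.00126). Their promoter windows are those printed above. Junb and Egr1 had r = 0.53 (permutation p = 0.0072, rho = 0.51, permutation p = 0.0115), and r = 0.37 without the 2 farthest mice (permutation p = 0.0891). For Jun and Jund r was 0.50 (permutation p = 0.00642, rho = 0.47, permutation p = 0.0171), falling to 0.30 without the 2 farthest mice (permutation p = 0.139). Jund and Btg2 had r = 0.49 (permutation p = 0.0129) but rho = 0.35 (permutation p = 0.0865), with r = 0.48 without the 2 farthest mice (permutation p = 0.0181). Jun and Fosl2 had r = 0.44 (permutation p = 0.0434, rho = 0.43, permutation p = 0.0434), with r = 0.35 without 2 mice (permutation p = 0.122). Without those mice the relations of Junb with Egr1 and of Jun with Jund and with Fosl2 no longer had an unadjusted p under 0.05, with r still positive.

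Members did not form 1 block. Fos and Jun, which can form the classical AP-1 dimer, had r = -0.13 (permutation p = 0.603, rho = -0.01, permutation p = 0.966). Without the 2 mice farthest from the median of Fos the sign turned (r = 0.16, permutation p = 0.51). Fos and Junb had r = 0.34 (permutation p = 0.124), and r = 0.49 without those mice (permutation p = 0.023). Egr1 had an r between -0.12 and 0.05 with the 6 members other than Junb. The lowest value was -0.19, for Fosl2 and Atf3. Control 14 and control 1 had most members among their 5 highest mice, 7 of 8 and 6 of 8, respectively. Without control 14 the median r was 0.10 and 3 of 28 pairs had an unadjusted p under 0.05, and without control 1 the median was 0.17 with 5 of 28.

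**Figure D3:**
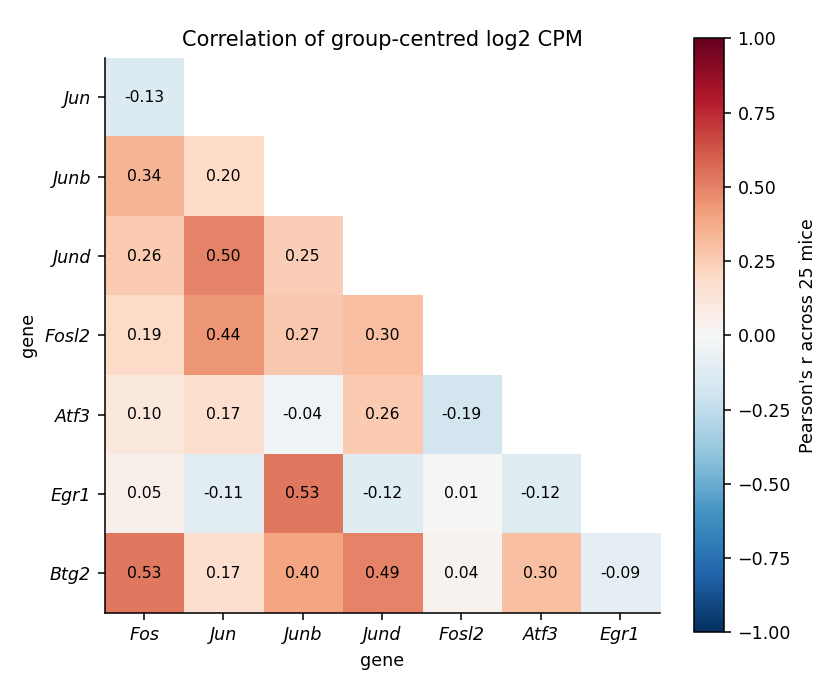
Pearson's r between each pair of the 8 members over 25 mice after removal of group means, with rows and columns as genes and colour from -1 (blue) to 1 (red). Values run from -0.19 to 0.53, and Fos with Btg2, Junb with Egr1, Jun with Jund, Jund with Btg2 and Jun with Fosl2 are the 5 highest.

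Within the groups the median r of the 28 pairs was 0.33 in control mice (n = 11, 22 positive) and 0.09 in thymol mice (n = 14, 17 positive), beside -0.00085 and -0.0011 over all pairs of genes. The sign differed between groups in 9 of 28 pairs. Over all pairs of genes 49.9% were positive in control and 49.9% in thymol mice, and the share that differed in sign was not counted. A treatment by member term, added to the same fits after the values were seen, was past the adjusted test for no pair (smallest adjusted p 0.726, limma), so the difference between groups was not shown. The 3 pairs with an unadjusted p under 0.05 for that term in both directions of the fit all held Fosl2. The share of all gene pairs at that threshold was not counted, so these 3 of 28 cannot be set against it. Fos and Fosl2 had r = 0.57 in control and -0.53 in thymol mice (unadjusted p 0.00291 and 0.0056), Junb and Fosl2 0.70 and -0.25 (0.00993 and 0.0134), and Fosl2 and Btg2 0.50 and -0.47 (0.0114 and 0.012).

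**Figure D4:**
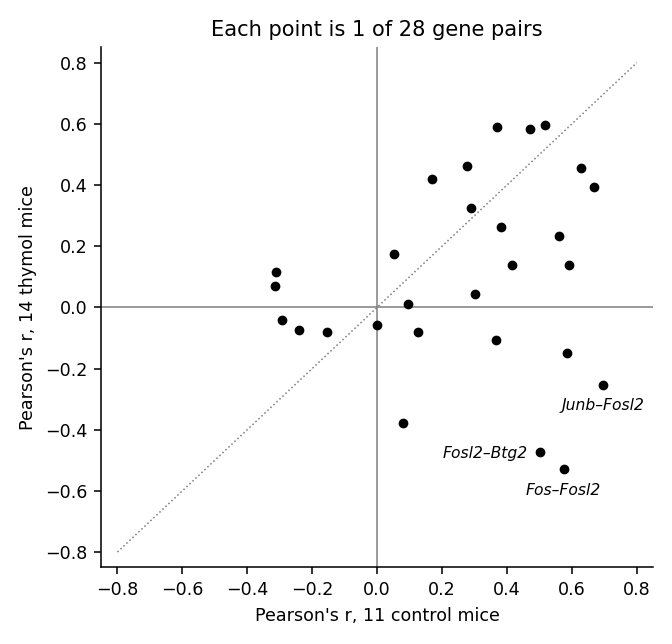
Pearson's r of each of the 28 member pairs in the 11 control mice (horizontal axis) and in the 14 thymol mice (vertical axis), with the dotted line marking equal values. Points at the lower right, Fos–Fosl2, Junb–Fosl2 and Fosl2–Btg2, are positive in control and negative in thymol mice. No pair passed the adjusted test for a difference between groups.

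The same fits gave the genes outside the group that co-varied with each member. For Jun, Junb, Fosl2, Egr1 and Btg2 no gene of 8828 passed the adjusted test (0%), for Fos 1 did (0.0113%), for Jund 2 (0.0227%) and for Atf3 3 (0.034%). These 6 genes are outside the rule for named genes apart from Dusp1 and Klf2, and were named after their values were seen. Adjusted over all 8 fits together, 3 of the 6 (Xirp1, Klf2 and Klf4) remained under 0.05.

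Xirp1, which encodes an actin-binding protein of the intercalated disc and of damaged or remodelling muscle fibres, rose with Atf3 by 0.50 log2 per SD of Atf3. The adjusted p was 0.000154 by limma, or 0.00123 over the 8 fits, and r was 0.83 (rho 0.78, and 0.75 without the 2 mice farthest from the median of Atf3). Within groups r was 0.63 in control and 0.88 in thymol mice. Xirp1 ranged from 4.89 to 6.11 log2 CPM in control and from 4.34 to 6.61 in thymol mice, with 159 to 858 reads, and thymol 21 was lowest for both genes. It passed the adjusted test in each of the 25 fits that left out 1 mouse and under 8 of 9 alternatives.

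Klf2 and Klf4, Krüppel-like factors known for their part in quiescence and in the response of the endothelium to flow, rose with Jund. Klf2 rose by 0.53 log2 per SD of Jund (adjusted p 0.00473, or 0.0189 over the 8 fits, limma), with r = 0.78 over all mice, 0.70 in control and 0.84 in thymol mice. Klf4 rose by 0.50 (adjusted p 0.00817, or 0.0436 over the 8 fits, limma), with r = 0.76 over all mice, 0.69 in control and 0.79 in thymol mice. Klf2 ranged from 3.28 to 6.08 log2 CPM and Klf4 from 2.06 to 5.02 over the 25 mice, and control 14 was highest for Jund, Klf2 and Klf4. Klf2 passed the test whichever mouse was left out and under 10 of 10 alternatives. Klf4 passed under 9 of 10 alternatives and in 24 of the 25 fits without 1 mouse, and had an adjusted p of 0.0737 without control 14. Of the differences between thymol and control, that of Klf2 was -0.45 (SE 0.24, unadjusted limma p 0.0732) and that of Klf4 -0.41 (SE 0.24, unadjusted limma p 0.0937). The median r of Jund with the 10 endothelial markers was -0.07.

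Dusp1, a phosphatase that switches off MAP kinases and is itself an immediate-early gene, rose with Fos by 0.37 log2 per SD of Fos. Its adjusted p was 0.0424 (0.0847 over the 8 fits, limma) and r was 0.74 (rho 0.69, and 0.67 without the 2 farthest mice), with 0.73 in control and 0.81 in thymol mice. The call held in 9 of the 25 fits without 1 mouse, with adjusted p from 0.00894 to 0.222. Atf3 also had Ppp1r27, a phosphatase regulatory subunit, at r = 0.70 and the clock gene Per3 at r = -0.72, both with an adjusted p of 0.0486 (0.194 and 0.174 over the 8 fits, limma). Each was near the threshold, with Ppp1r27 called in 5 and Per3 in 8 of the 25 fits without 1 mouse. Xirp1 overlaps Cx3cr1 and Per3 overlaps Camta1 on the same strand, and Dusp1 overlaps AC122252.1 and AC122252.4 on the same strand and Ergic1 and Gm8225 on the other, so reads assigned to these genes are less certain.

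**Figure D5:**
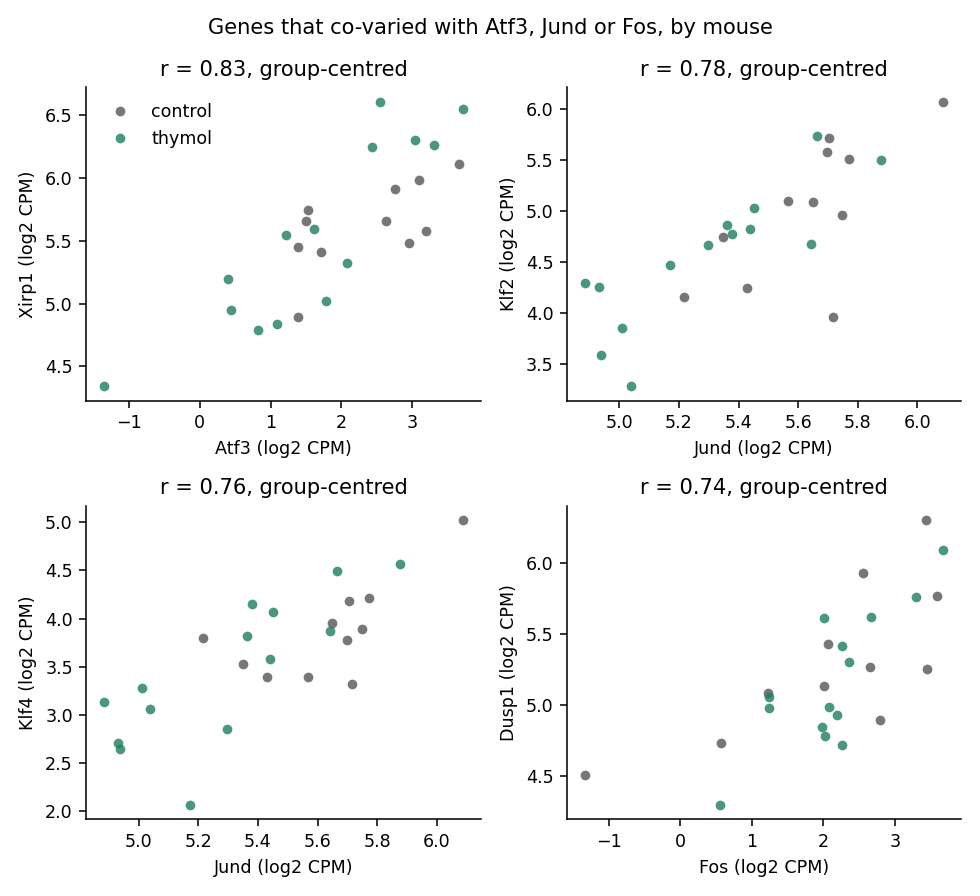
Levels in log2 CPM of Xirp1 against Atf3, of Klf2 and Klf4 against Jund and of Dusp1 against Fos, 1 point a mouse, in grey for control and green for thymol. Points of both groups run from lower left to upper right, with r = 0.83, 0.78, 0.76 and 0.74 after removal of group means.

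Among the pathway lists, heat-shock and handling stress genes had a median r of 0.46 with Atf3, with 7 of 10 positive and Hspa1a, the inducible chaperone, highest at 0.68. Their median was 0.26 with Fos, 9 of 10 positive, and between -0.04 and 0.14 with the other 6 members. Circadian clock genes, Per3 among them, had a median r of -0.30 with Atf3, with 1 of 13 positive. With the other members the clock median lay between -0.07 (Jund) and 0.19 (Egr1). Other immediate-early genes had a median r of 0.28 with Jund and 0.26 with Jun, with 28 and 30 of 34 positive. The median was 0.18 with Junb and 0.17 with Btg2, each with 28 of 34 positive. It was -0.07 with Fos and between -0.01 and 0.07 with Fosl2, Atf3 and Egr1. That list holds Klf2, Klf4 and Dusp1, described above. The median over all genes was between -0.01 and 0.01 for each member. Slow fibre markers had a median r of -0.41 with Egr1 and 0.30 with Jund, blood cell markers 0.52 with Jun and 0.37 with Jund, and leukocyte and macrophage markers -0.40 with Jun. Schwann cell markers had -0.44 with Fosl2 and -0.34 with Fos, and adipocyte markers -0.34 with Fosl2 and -0.31 with Fos. Fibroblast markers had -0.32 with Jun, and the 2 satellite cell markers 0.34 with Fos. Genes of 1 list share their cells and mice, these medians were given no test, and the part of cell makeup in the co-variation of the members was not tested.

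The 10 genes most like the members, by mean r with the 8, were Otud1 (0.38), Dusp1 (0.37), Tmem222 (0.34), Natd1 (0.34), Hectd3 (0.33), Pgam5 (0.33), Ciao2b (0.33), Klf2 (0.33), Sox9 (0.32) and Med27 (0.32). For 8821 genes outside the group the median of this mean was -0.0013, and 5 in 100 genes exceeded 0.19. Otud1, a deubiquitinase, was positive with 7 of 8 members, from 0.02 with Fosl2 to 0.66 with Btg2, and had r = -0.07 with Egr1. Dusp1 was positive with all 8, from 0.06 with Egr1 to 0.74 with Fos.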

How the data were processed

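Gastrocnemius messenger RNA of 25 SAMP8 mice was analysed. Per the labels and methods, the authors aligned QuantSeq 3′ reads with STAR 2.5.3 (GRCm38), counted them with HTSeq 0.6.1, kept genes with at least 30 reads in at least 6 samples, applied TMM scaling and deposited log2 CPM values. They tested counts with edgeR, which was not run here.

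The values came out as whole reads for 100% of entries at a tolerance of 0.1 reads, and depth was 4463818 to 9463418 reads per mouse. Reads may hold PCR duplicates, so the counting error given is a lower limit. Groups came from the sample labels, and whether mice shared a litter or cage was not given. Differences, spread and co-variation were tested with limma 3.58.1 in R 4.3.3, two-sided, with a mean-variance trend and Benjamini-Hochberg adjustment over all genes, and pairs of members with 100000 permutations within groups. With Ier2 and Maff not measured, 28 pairs were tested. Slopes are per SD of a member within groups. Named genes were the members, up to 5 genes a list with the smallest unadjusted p under 0.05, and the 10 most alike by mean r, and 1 gene that this rule takes is not reported here. Members and lists were chosen with earlier results of these data known. The interaction term, the adjustment over 8 fits and the repeat fits of the 6 co-varying genes were added after the values were seen. Alternatives covered scaling, filter, pseudocount, voom, weights, moderation, library number, a replicate block and each mouse left out. The fits were tested on simulated data. Promoters and positions are from RefSeq (GRCm38.p6) and GENCODE M21 (GRCm38).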

Additional observations from a re-analysis of the deposited data

How the results depend on the processing

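No member passed the adjusted test for thymol under any of 10 alternatives or without any of the 25 mice, and unadjusted p for Jund stayed between 0.00254 and 0.0307 under the alternatives. Its difference kept its direction, as did those of Jun, Fosl2, Atf3, Egr1 and Btg2. The difference of Fos was -0.081 with a pseudocount of 5 and -0.55 with the replicate block, and from -0.30 to 0.19 with 1 mouse left out. That of Junb ran from -0.097 to 0.067 with 1 mouse left out. Without the 25% of genes with the lowest mean, Fos, Atf3 and Btg2 were not tested. Pairs with an unadjusted permutation p under 0.05 numbered 3 of 28 in control mice alone and 3 to 7 with 1 mouse left out, against 5. Genes at an unadjusted p under 0.05 for spread numbered 523 with deviations from the group mean, against 276, and none passed the adjusted test under any alternative.

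The first number of the label was shared by 16 mice. The mean correlation of deviations was -0.0022 between mice of different groups with the same number (9 pairs, -0.18 to 0.10) and 0.00021 between others. No pairing was thus seen in this mean over all genes. Pairs within a group were left out, and 9 pairs cannot decide whether mice with the same number are related. As a replicate block it left 282 genes at an unadjusted p under 0.05 for thymol against 312, gave Atf3 -0.95 (unadjusted limma p 0.0069), kept Klf2 with Jund (adjusted p 0.0283, limma) and took the other 5 co-varying genes above the threshold. Xirp1 with Atf3 then had an adjusted p of 0.911 and a slope of 0.096 against 0.50, and Klf4 with Jund an adjusted p of 0.7 and a slope of 0.49 against 0.50. A mouse with a number of its own adds nothing to a block fit, so these values rest on the 16 mice that share one. Thymol 20 and thymol 21, the highest and the lowest mouse for Atf3, are not among them. The cause of the changes was not tested. Members with few reads (Fos, Atf3) have intervals that allow a change of over 0.8 on the log2 scale.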

Other observations

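Library number, the number that ends the library name in the labels, was fitted as a covariate for every gene. No gene passed the adjusted test (limma), and the share of all genes at an unadjusted p under 0.05 was not counted. Junb fell by 0.16 log2 per SD of library number (unadjusted limma p 0.0469), Btg2 by 0.17 (unadjusted limma p 0.0839) and Fos by 0.29 (unadjusted limma p 0.163), and the other 5 members had an unadjusted p over 0.5. The meaning of the number was not given in the sources used here.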
